A study of Homo sapiens with 8 samples.

Results

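The 8 genes described here were chosen by the size and the timing of their decrease in LNCaP cells exposed to asporin (ASPN), out of the 36474 genes in the deposited table. KLHDC7B, C1orf158, FIBIN and ADA2 were selected on a decrease present by 12 h, and PGC, PHGR1, SMIM31 and VPREB3 on a decrease between 12 h and 24 h. LNCaP is an androgen-responsive line from a human prostate cancer metastasis, and ASPN is a small leucine-rich proteoglycan that fibroblasts secrete. All cells were first starved for 6 to 12 h without serum or calcium, and bulk mRNA was sequenced at the start (0 h, 2 libraries) and after 12 h or 24 h with recombinant ASPN at 100 ng/mL (3 libraries each). No library kept for the same time without ASPN was analysed here, so ASPN and time in the starvation medium cannot be told apart. The libraries are labelled as biological replicates, and the protocol describes wells of the same line plated in triplicate, so errors and p values measure only the spread between such wells. Another 0 h library failed quality control in the study and is not analysed here, and the second 0 h library carries a number that no 0 h label has.

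The genes were chosen because of their own changes in these libraries. Their levels and changes are therefore a description, given with the standard deviation (SD) or standard error (SE) and with no p value. Library totals ran from 73406825 to 96962135 counts. Levels are counts scaled to a common library size (CPM) with factors from the trimmed mean of M values (TMM), and at these totals 3 counts equal 0.0309 to 0.0409 CPM. A gene was called when it changed by at least 1.5-fold at an adjusted p of at most 0.05 in the edgeR quasi-likelihood test with Benjamini-Hochberg adjustment over 21071 tested genes. Bulk counts cannot tell fewer cells of a type from less RNA per cell.

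The 8 proteins belong to different branches of biology. KLHDC7B carries a kelch domain, a propeller-shaped fold that several relatives use to present substrates to ubiquitin ligases. C1orf158, now named CFAP107, encodes a protein found inside the doublet microtubules of motile cilia. FIBIN (fin bud initiation factor homolog) is a secreted protein known from limb development, and ADA2 is a secreted adenosine deaminase made mainly by myeloid cells. PGC (pepsinogen C) is the inactive precursor of a stomach acid protease and is also found in seminal fluid. PHGR1 is a small protein rich in proline, histidine and glycine that is best known from the gut epithelium, SMIM31 is a small single-pass membrane protein, and VPREB3 associates with the immature B cell receptor in the endoplasmic reticulum.

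The promoters of these genes are shown as a description. The sets were formed by the timing of the decrease, so a shared course within a set follows from that choice, and shared regulation was not tested. The RefSeq promoter table (GRCh38.p14) held 5 of the 8 genes, 2 of the early set and 3 of the late set. The stretch of SMIM31 is not printed because it overlaps annotated exon sequence. For the other 4 genes the 150 bases before the annotated start follow, 5′ to 3′ on the strand of the gene, with every base of a searched motif in capitals.
KLHDC7B (chr22:50545749-50545898, plus strand): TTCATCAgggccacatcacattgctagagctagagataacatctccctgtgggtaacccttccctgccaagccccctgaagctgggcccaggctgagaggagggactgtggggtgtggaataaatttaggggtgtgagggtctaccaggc
C1orf158 (chr1:12746050-12746199, plus strand): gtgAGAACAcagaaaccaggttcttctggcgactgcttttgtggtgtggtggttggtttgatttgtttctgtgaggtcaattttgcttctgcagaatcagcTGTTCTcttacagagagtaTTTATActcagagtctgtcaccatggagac
PGC (chr6:41747398-41747547, minus strand): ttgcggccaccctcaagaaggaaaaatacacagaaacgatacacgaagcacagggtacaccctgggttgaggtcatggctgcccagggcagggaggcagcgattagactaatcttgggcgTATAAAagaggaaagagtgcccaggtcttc
VPREB3 (chr22:23754426-23754575, minus strand): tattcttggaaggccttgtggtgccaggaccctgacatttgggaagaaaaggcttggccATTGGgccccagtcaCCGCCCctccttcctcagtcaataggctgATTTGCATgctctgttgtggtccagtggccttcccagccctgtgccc
The PGC start in RefSeq lies inside the longer span that GENCODE gives the gene.

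Motifs were searched on both strands from 250 bases before to 50 after the start in 27305 promoters. The TATA box letters TATAAA occurred in 12.0% of all promoters and in 3 of these 5. They began 30 bases before the start in PGC, at the same distance on the other strand in C1orf158, and 136 bases before it in SMIM31. C1orf158 also held the androgen receptor half-site AGAACA at 147 bases and, on the other strand, at 49 bases before the start, a motif present in 14.9% of promoters. The full palindromic androgen response element was in none of the 5 and in 1 of 27305 promoters. VPREB3 held the immunoglobulin octamer ATTTGCAT 47 bases before the start (1.80% of promoters), a motif added to the search after these promoters had been read. It also held CCAAT (35.7% of promoters) and GGGCGG (44.6%), both on the other strand, 91 and 76 bases before the start. KLHDC7B held TGATGNAAN, a C/EBP-ATF site, on the other strand 152 bases before the start, which puts its outermost bases just beyond the printed stretch (3.67% of promoters). None of the 5 held CACGTG (7.43% of promoters), TGACGTCA (1.98%), TGANTCA (7.76%) or TGTTTAC (3.41%). Letters that match a motif are a description of the sequence and not a binding site. CpG dinucleotides numbered 5 in KLHDC7B, 1 in C1orf158, 9 in PGC, 4 in SMIM31 and 1 in VPREB3, against a median of 14 over all promoters.

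The 8 transcripts were scarce at the start. Per kilobase of exon, the mean level at 0 h lay between 0.305 CPM for ADA2 and 2.69 CPM for VPREB3. These levels stood at percentiles 19.4 to 42.3 of the 14250 tested coding genes on the same per-length scale. In order from the highest they were VPREB3 (2.69), PHGR1 (1.76), FIBIN (1.32), KLHDC7B (1.27), PGC (1.20), C1orf158 (0.673), SMIM31 (0.620) and ADA2 (0.305 CPM per kilobase). All 8 passed the low-count filter, each with at least 66 counts in every library.

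**Figure D1:**
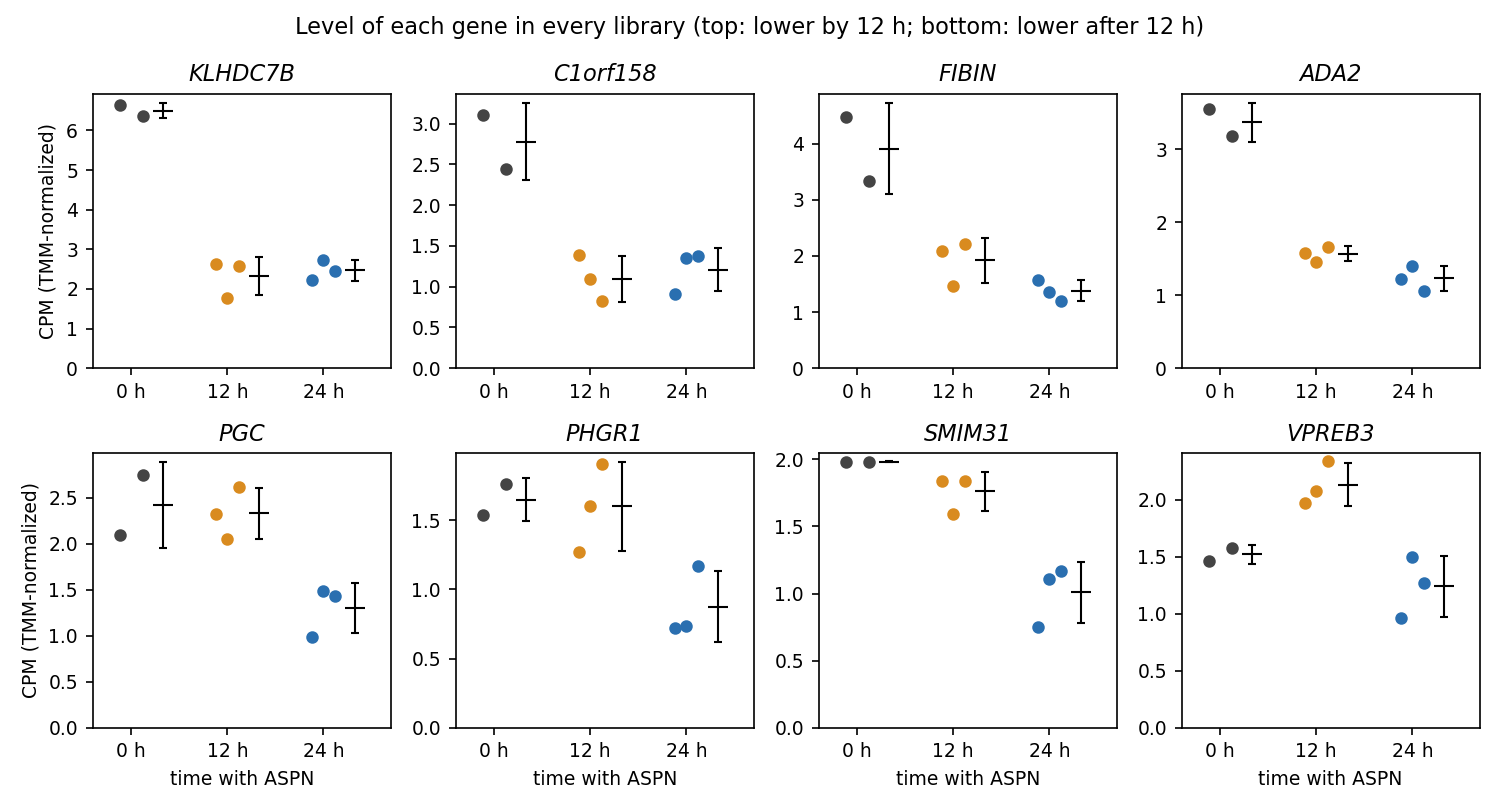
Level of each of the 8 genes in CPM (TMM-normalized, linear axis from 0) in the 2 libraries at 0 h and the 3 libraries each at 12 h and 24 h with ASPN. Points are libraries and bars are mean ± SD. The upper 4 genes are lower in every 12 h and 24 h library than in both 0 h libraries, and the lower 4 are lower in every 24 h library than in every 12 h library.

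KLHDC7B (ENSG00000130487.9, GRCh38 chromosome 22, 50545899 to 50551023, 1 exon) had the deepest decrease at 12 h among genes that averaged 100 or more counts. It stood at 6.63 and 6.37 CPM at 0 h, at 2.63, 1.77 and 2.57 CPM at 12 h, and at 2.22, 2.74 and 2.46 CPM at 24 h. Both later groups lay wholly below the 0 h libraries and overlapped each other. Its mean was 6.50 ± 0.185 CPM at 0 h (SD, n = 2) and 2.32 ± 0.478 CPM at 12 h (SD, n = 3), which is 64.3% lower by the fit. This corresponds to a log2 change of -1.49 (SE 0.15) at 12 h and -1.39 (SE 0.15) at 24 h against 0 h. Between 12 h and 24 h it was 0.10 (SE 0.15, 95% interval -0.19 to 0.38).

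C1orf158 (ENSG00000157330.10, chromosome 1, 12746200 to 12763699, 5 exon blocks), the gene of the ciliary microtubule protein, had the same course at a lower level. Its libraries read 3.11 and 2.45 CPM at 0 h, 1.39, 1.09 and 0.825 CPM at 12 h, and 0.912, 1.35 and 1.38 CPM at 24 h. Every treated library was below both 0 h libraries, and the 12 h and 24 h ranges overlapped. On the log2 scale the change was -1.34 (SE 0.22) at 12 h and -1.20 (SE 0.22) at 24 h. From 12 h to 24 h it was 0.14 (SE 0.21, 95% interval -0.27 to 0.56). Stretches of up to 304 bases of its longest transcript are at least 90% identical to transcripts of 32 other genes. The longest stretch covers 8.53% of that transcript. Part of its counts may therefore be uncertain, which was not tested.

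FIBIN (ENSG00000176971.4, chromosome 11, 26994112 to 26997087, 1 exon), the fin bud factor, stood at 4.48 and 3.34 CPM at 0 h. It read 2.09, 1.46 and 2.21 CPM at 12 h and 1.57, 1.36 and 1.20 CPM at 24 h. All treated libraries were below both 0 h libraries, and the ranges at 12 h and 24 h overlapped through the lowest 12 h library. The log2 change was -1.03 (SE 0.18) at 12 h and -1.5 (SE 0.19) at 24 h, a level 64.7% lower. The step from 12 h to 24 h, at -0.47 (SE 0.18), was not called. Without 0 h replicate 1, the higher of its 0 h libraries, the 12 h change was -0.80 and was no longer called.

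ADA2 (ENSG00000093072.18, chromosome 22, 17178790 to 17258235, minus strand, 17 exon blocks), the secreted adenosine deaminase, read 3.55 and 3.18 CPM at 0 h. It stood at 1.58, 1.46 and 1.66 CPM at 12 h and at 1.22, 1.40 and 1.06 CPM at 24 h. The 3 groups formed 3 separate steps with no overlap. The log2 change was -1.10 (SE 0.18) at 12 h and -1.45 (SE 0.18) at 24 h, and the second step of -0.35 (SE 0.17) was not called. In GENCODE 44, ADA2 shares 92 exon bases, 0.834% of its exon bases, with the noncoding gene CECR3 on the same strand. Reads from those bases cannot be told apart, and CECR3 is not among the counted genes. The exon blocks and the level per kilobase also rest on GENCODE 44, where ADA2 has a later identifier version than in the counts. Stretches of up to 271 bases of its longest transcript, at most 5.06% of it each, resemble transcripts of 25 other genes at 90% identity or more.

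All 4 early genes were called lower at 12 h and at 24 h against 0 h, and none between 24 h and 12 h. Over all tested genes, 0.565% were called lower at 12 h and 1.35% at 24 h against 0 h, and 0.104% at 24 h against 12 h. The rule that chose the genes used these contrasts, so the counts follow from the choice. Ranked by decrease at 12 h among the 13464 tested genes that averaged 100 or more counts, KLHDC7B held rank 1, C1orf158 rank 4, ADA2 rank 7 and FIBIN rank 8. The genes between them were GPR1 (log2 change -1.48) at rank 2, OR51E2 (-1.35) at rank 3, SLC39A10 (-1.28) at rank 5 and PLEKHH2 (-1.19) at rank 6. Among the called genes, without those named by a clone, the next was MMP13 (-0.97, SE 0.22).

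PGC (ENSG00000096088.16, chromosome 6, 41736711 to 41754109, minus strand, 12 exon blocks), the pepsinogen gene, was lower in the 24 h libraries alone. Its libraries read 2.09 and 2.75 CPM at 0 h, 2.32, 2.05 and 2.61 CPM at 12 h, and 0.989, 1.49 and 1.43 CPM at 24 h. The 0 h and 12 h ranges overlapped, and the 24 h libraries lay below all of them. PGC thus changed by -0.05 (SE 0.19, 95% interval -0.43 to 0.33) at 12 h, -0.89 (SE 0.20) at 24 h against 0 h, and -0.84 (SE 0.18) from 12 h to 24 h on the log2 scale. The 24 h mean of 1.30 ± 0.273 CPM (SD, n = 3) was 44.1% below the 12 h level by the fit.

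PHGR1 (ENSG00000233041.8, chromosome 15, 40351033 to 40356434, 4 exon blocks), the gut epithelial gene, had 1.54 and 1.76 CPM at 0 h. It had 1.27, 1.60 and 1.91 CPM at 12 h and 0.725, 0.734 and 1.17 CPM at 24 h. The 12 h libraries spanned the 0 h libraries, and the highest 24 h library stayed below the lowest 12 h library. The log2 change was -0.04 (SE 0.23, 95% interval -0.50 to 0.41) at 12 h, -0.93 (SE 0.24) at 24 h against 0 h, and -0.88 (SE 0.22) from 12 h to 24 h, the deepest decrease of that step among genes that averaged 100 or more counts.

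SMIM31 (ENSG00000248771.5, chromosome 4, 164754064 to 164803795, 3 exon blocks), the small membrane protein gene, stood at 1.98 CPM in both 0 h libraries. It read 1.84, 1.59 and 1.84 CPM at 12 h and 0.747, 1.11 and 1.17 CPM at 24 h. The 12 h libraries were all slightly below the 0 h libraries, without a call, and the 24 h libraries were below both groups. The log2 change was -0.17 (SE 0.21, 95% interval -0.57 to 0.23) at 12 h, -0.98 (SE 0.21) at 24 h against 0 h, and -0.81 (SE 0.19) from 12 h to 24 h. Stretches of up to 314 bases of its longest transcript are at least 90% identical to transcripts of 223 other genes. The longest stretch covers 10.1% of that transcript. Part of its counts may therefore be uncertain, which was not tested.

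VPREB3 (ENSG00000128218.8, chromosome 22, 23752743 to 23754425, minus strand, 2 exon blocks), the B cell receptor chaperone gene, took another course. It stood at 1.46 and 1.58 CPM at 0 h, at 1.97, 2.08 and 2.34 CPM at 12 h, and at 0.967, 1.5 and 1.27 CPM at 24 h. Every 12 h library was above both 0 h libraries, and the 24 h range reached into the 0 h range. The log2 change was 0.48 (SE 0.21, 95% interval 0.08 to 0.89) at 12 h, -0.29 (SE 0.21, 95% interval -0.70 to 0.12) at 24 h against 0 h, and -0.77 (SE 0.18) from 12 h to 24 h. VPREB3 was therefore a falling gene only against 12 h, and against 0 h it was called in neither direction at either time. Its choice by a decrease after 12 h favours high 12 h values, so the higher level at 12 h is a description only.

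All 4 late genes were called lower at 24 h against 12 h, and PGC, PHGR1 and SMIM31 also at 24 h against 0 h. Over all tested genes these shares were 0.104% and 1.35%. The rule that chose the late genes used the step from 12 h to 24 h, so their calls and ranks there follow from the choice. PHGR1, PGC, SMIM31 and VPREB3 held ranks 1 to 4 by decrease from 12 h to 24 h among the 13464 genes. Among the called genes, without those named by a clone, LOX followed with a log2 change of -0.62 (SE 0.10). Each of the 4 calls of the late genes against 12 h ended when 12 h replicate 3 or 24 h replicate 1 was left out. The log2 changes were then -0.77 to -0.70 and -0.76 to -0.62. The call of PHGR1 also ended without 24 h replicate 2 (-0.77) and that of VPREB3 without 24 h replicate 3 (-0.78). The calls of PGC and PHGR1 against 0 h ended without the second 0 h library, at log2 changes of -0.68 and -0.83.

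The same libraries were extreme for a whole set. In 0 h replicate 1 all 4 early genes were at the higher and all 4 late genes at the lower of the 2 values. At 12 h, replicate 3 was the highest library for all 4 late genes, and at 24 h, replicate 1 was the lowest for all 4. Over the 8 libraries, log2 CPM of the early genes correlated with each other at Pearson r of 0.73 to 0.96 and that of the late genes at 0.71 to 0.97. Between an early and a late gene r lay between -0.13 and 0.70. These 8 points share the time course that chose the genes, so the values are a description.

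Timing was expressed as the share of the 24 h log2 change that was already present at 12 h. The share was 107% for KLHDC7B, 112% for C1orf158, 76.1% for ADA2 and 68.8% for FIBIN. It was 17.4% for SMIM31, 5.76% for PGC and 4.86% for PHGR1. Both comparisons use the same 0 h libraries, so an error in these moves both parts of the share. The other 169 well-counted genes called lower at 24 h had a median share of 64.6%, quartiles of 51.5% and 80.0%, and a range of 4.14% to 118%. Of these, 7 had reached their whole change by 12 h and 6 less than 25% of it. FIBIN and ADA2 thus lay between the quartiles, while KLHDC7B and C1orf158 stood at the early end and PGC, PHGR1 and SMIM31 at the late end. The genes were chosen by a decrease by 12 h or after 12 h, which this share measures. The place of the late genes at the low end therefore follows from the choice, and the shares are a description.

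**Figure D2:**
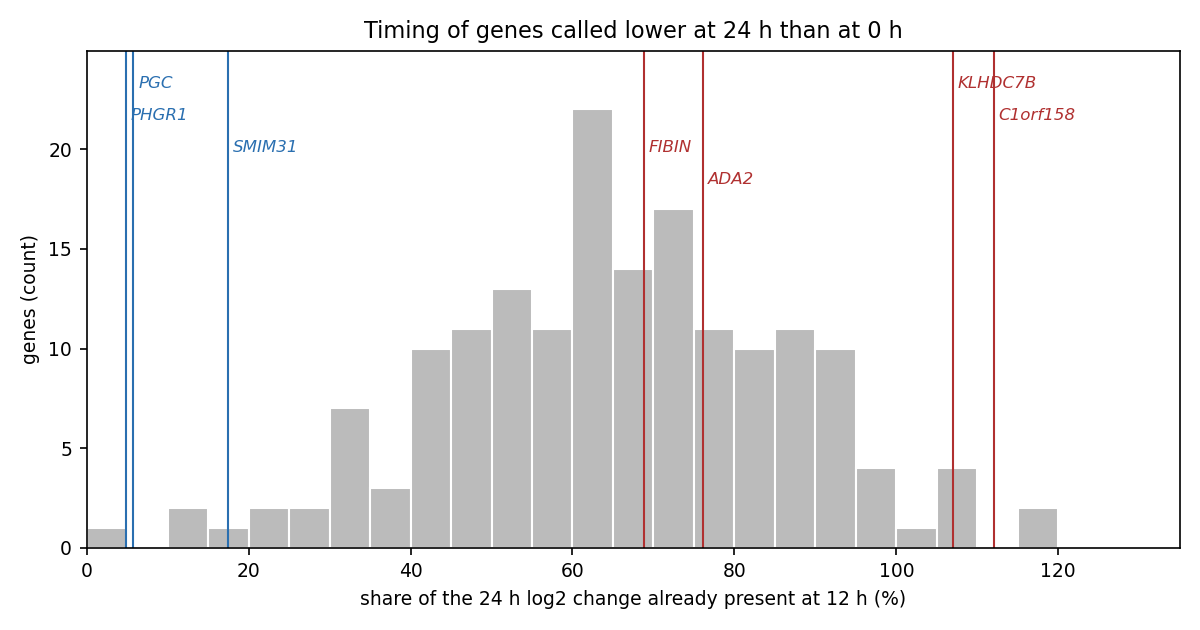
Share of the 24 h log2 change already present at 12 h (x axis, percent) for 169 other genes called lower at 24 h than at 0 h, counted in bins 5 percentage points wide (y axis, genes), with vertical lines for 7 of the 8 genes (red, early; blue, late; VPREB3 was not called and is left out). FIBIN and ADA2 stand near the middle of the distribution, and PGC and PHGR1 at its low end. The 8 genes were chosen by this timing, and the other genes were not.

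The libraries were checked against markers of other cells, since several of the 8 genes are known from blood or gut. All 10 markers of LNCaP or luminal prostate cells averaged at least 1 CPM and summed to 5740 to 5750 CPM at 0 h, 6122 to 6189 CPM at 12 h and 6292 to 6462 CPM at 24 h. None of 7 B cell markers reached a mean of 1 CPM, and their sum was 0.138 to 0.159 CPM at 0 h, 0.157 to 0.298 CPM at 12 h and 0.0545 to 0.227 CPM at 24 h, below VPREB3 itself in every library. MS4A1 and PAX5 had at most 1 and 5 counts in a library. Of 8 macrophage markers, TYROBP had no counts or no entry and the other 7 did not reach 1 CPM (sums of 0.250 to 0.371, 0.233 to 0.263 and 0.209 to 0.393 CPM at 0, 12 and 24 h). Of 10 gastric or intestinal markers, GKN1, PGA3, PGA4, PGA5, CDX1 and FABP1 had no counts or no entry, and the other 4 did not reach 1 CPM either (sums of 0.749 to 0.812, 0.618 to 0.707 and 0.582 to 0.879 CPM). LGALS4, an intestinal galectin with a mean of 0.761 CPM at 0 h and at most 67 counts, made up most of that sum, and CDX2 had at most 18 counts. Of 9 fibroblast markers, COL1A2 was not analysed here and 2 averaged at least 1 CPM, and the sums were 22.3 to 22.7, 21.7 to 23.9 and 21.3 to 21.9 CPM.

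Genes of the same pathways or families were then examined. Over all tested genes, 11.6% were past an adjusted p of 0.05 in either direction at 12 h against 0 h, 16.3% at 24 h against 0 h and 2.72% at 24 h against 12 h, with median log2 changes of -0.0007, -0.0031 and 0.0035. The counts below are set beside these shares and were not tested as lists, and all adjusted p values are from the edgeR quasi-likelihood test.

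Of the purine nucleoside genes around ADA2, 28 were tested. At 12 h, 5 rose and 2 fell (25% of them), at 24 h against 0 h 5 rose and 3 fell (28.6%), and from 12 h to 24 h 1 fell (3.57%), with medians of 0.09, 0.04 and -0.00. ADA, the intracellular deaminase that shares its reaction with ADA2, had 15.4 ± 1.52 CPM at 0 h (SD, n = 2) and 18.3 ± 1.17 CPM at 12 h (SD, n = 3). This was a log2 change of 0.25 (edgeR adjusted p 0.0323), which stood at 0.22 (adjusted p 0.0567 by edgeR) at 24 h. Its 12 h test was lost without 0 h replicate 1, without 12 h replicate 1 and when the 24 h libraries were not fitted. XDH, which oxidizes the purines that deamination yields, fell throughout. It read 13.4 ± 0.291 CPM at 0 h (SD, n = 2), then 9.44 ± 0.706 and 6.20 ± 0.299 CPM (SD over 3 libraries each). On the log2 scale it moved by -0.51 at 12 h (edgeR adjusted p 0.000213), -1.11 at 24 h (adjusted p 1.76e-10) and -0.61 between them (adjusted p 3.74e-05). The last dropped below 1.5-fold without 12 h replicate 3 or 24 h replicate 3. SLC29A1, the main equilibrative nucleoside transporter, rose from 7.40 to 11.7 and then 13 CPM, with log2 changes of 0.67 (edgeR adjusted p 4.24e-06) and 0.81 (adjusted p 4.19e-08). SLC29A4, another transporter of the family, rose by 0.28 at 12 h (edgeR adjusted p 0.0166) and 0.45 at 24 h (adjusted p 0.000108), of which the 12 h test was lost without 0 h replicate 1 or 12 h replicate 1. ENTPD3, an enzyme that removes phosphates from nucleotides outside the cell, fell from 5.29 to 3.23 and 2.88 CPM, with log2 changes of -0.72 (edgeR adjusted p 0.00159) and -0.89 (adjusted p 6.85e-05). The 12 h call of ENTPD3 ended without 0 h replicate 1 or without 12 h replicate 3. ADORA1, an adenosine receptor named after its values were seen, rose from 0.268 to 0.711 and 0.841 CPM (log2 change 1.66 at 24 h, edgeR adjusted p 0.000947), a call that ended without 0 h replicate 1.

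Of the KLHDC kelch genes, 7 were tested, with 1 higher and 1 lower at 12 h (28.6%), 1 higher and 2 lower at 24 h against 0 h (42.9%) and 0 from 12 h to 24 h (0 also by DESeq2 and at an unadjusted p under 0.05), and medians of 0.00, 0.02 and -0.03. KLHDC10, a substrate receptor of ubiquitin ligases, fell by 0.18 on the log2 scale at 12 h (edgeR adjusted p 0.0107) and by 0.21 at 24 h (adjusted p 0.00244), and its 12 h test was lost without 0 h replicate 1. KLHDC2, another such receptor, fell by 0.18 at 24 h (edgeR adjusted p 0.0457), a result lost on leaving out any 24 h library, 0 h replicate 1 or 12 h replicate 3. The higher gene, KLHDC8A, had 0 to 16 counts and none at 0 h, and its calls ended without either 0 h library. KLHDC7A, the closest relative of KLHDC7B, had at most 7 counts and was not tested.

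Of the axonemal and ciliary genes, 31 were tested, with 2 lower at 12 h (6.45%), 2 higher and 1 lower at 24 h against 0 h (9.68%) and 0 from 12 h to 24 h (0 by DESeq2, 6 at an unadjusted p under 0.05, medians -0.01, -0.02 and 0.04). RFX3, a transcription factor of cilia genes, fell by 0.19 on the log2 scale at 24 h (edgeR adjusted p 0.00950). RSPH1, a radial spoke protein, rose by 0.35 at 24 h (edgeR adjusted p 0.0259) and C9orf116, which encodes a protein of the same microtubule interior as CFAP107, by 0.29 (adjusted p 0.0348). Each of these 3 tests was lost without 0 h replicate 1.

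Of the limb-bud genes listed for FIBIN, 11 were tested. At 12 h 1 rose (9.09%), at 24 h 3 rose (27.3%), from 12 h to 24 h 2 rose (18.2%), and none fell, with medians of 0.04, 0.17 and 0.04. The rises from 12 h to 24 h were those of PITX1, lost without 24 h replicate 1 or 2, and LMX1B, lost in 8 of 13 alternatives, RLE normalization among them. PITX1, a hindlimb homeobox factor, rose from 39.3 ± 1.80 CPM at 0 h (SD, n = 2) to 53.1 ± 1.05 and 62.8 ± 3.72 CPM (SD over 3 libraries each), a log2 change of 0.67 at 24 h (edgeR adjusted p 2.40e-10). WNT2B, a secreted Wnt ligand, rose by 0.78 at 24 h (edgeR adjusted p 0.0135), a call that ended without either 0 h library. LMX1B rose by 0.24 (adjusted p 0.0441 by edgeR), and that test was lost without 0 h replicate 1 or any 24 h library.

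Of the pepsin-family proteases, 5 were tested and 0 were past 0.05 in the 3 comparisons by edgeR or by DESeq2 (0, 1 and 1 at an unadjusted p under 0.05 by edgeR), with medians of 0.08, 0.03 and 0.01. CTSD, the lysosomal aspartic protease, had 95.7, 101 and 102 CPM at 0, 12 and 24 h, with log2 changes of 0.08 and 0.09 against 0 h (edgeR adjusted p 0.343 and 0.239). Of the gastrointestinal genes, 17 were tested, with 1 higher at 12 h (5.88%), 1 lower at 24 h against 0 h (5.88%) and 3 lower from 12 h to 24 h (17.6%), and medians of 0.03, 0.03 and -0.09. AGR2, an endoplasmic reticulum disulfide isomerase of mucus-producing cells, read 27.9 ± 2.01 CPM (SD, n = 2), 24.9 ± 0.282 and 19.5 ± 0.544 CPM (SD over 3 libraries each). The change on the log2 scale was -0.16 at 12 h (edgeR adjusted p 0.102), -0.52 at 24 h (adjusted p 4.33e-07) and -0.36 from 12 h to 24 h (adjusted p 0.000439). SPDEF, a transcription factor of secretory epithelium, rose by 0.23 at 12 h (edgeR adjusted p 0.00197) and fell by 0.17 from 12 h to 24 h (adjusted p 0.0343). The rise of SPDEF was lost without 0 h replicate 1, and the later fall without 12 h replicate 3 or any 24 h library. SPINK1, a trypsin inhibitor with 0 to 26 counts, was the other lower gene of that step, a call that ended without the second 0 h library, 12 h replicate 3 or any 24 h library.

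Of the B-lineage genes, 6 were tested and only TCF3, a widely expressed E protein, was past the threshold, with a rise of 0.20 at 24 h against 0 h (edgeR adjusted p 0.00357, lost without 0 h replicate 1). The list medians were -0.03, -0.16 and -0.02. At 24 h against 0 h 16.7% of the 6 passed, and in the other comparisons 0 did by edgeR or DESeq2, with 2 and 0 at an unadjusted p under 0.05. IGLL1, a component of the surrogate light chain of immature B cells, had at most 2 counts. Of the small integral membrane protein genes, 19 were tested, with 1 higher and 3 lower at 12 h (21.1%), 3 lower at 24 h against 0 h (15.8%) and 0 from 12 h to 24 h (0 by DESeq2, 2 at an unadjusted p under 0.05), and medians of -0.02, -0.01 and -0.00. SMIM14 fell from 223 to 160 and 149 CPM, by 0.48 and 0.58 on the log2 scale (edgeR adjusted p 2.38e-07 and 1.04e-09). SMIM13 fell by 0.34 and 0.33 (edgeR adjusted p 0.000556 and 0.000482) and SMIM20 by 0.22 at both times (adjusted p 0.0120 and 0.00837), and these tests of SMIM13 and SMIM20 were lost without 0 h replicate 1. SMIM28, the higher gene, had 1 to 38 counts, and its call ended without either 0 h library.

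**Figure D3:**
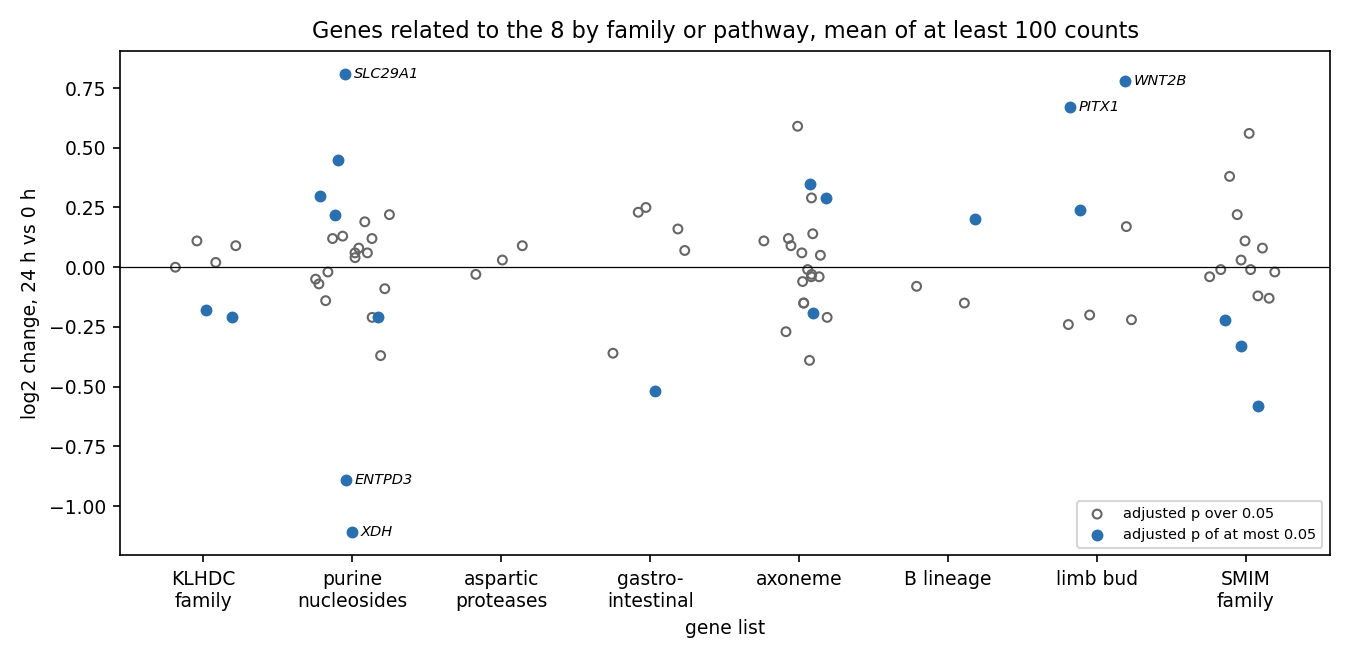
Log2 change at 24 h against 0 h (y axis) of the 84 genes with a mean of at least 100 counts in the 8 lists (x axis), with filled points for an adjusted p of at most 0.05 and names for those also changed by at least 1.5-fold. XDH (-1.11) and ENTPD3 (-0.89) are the lowest points and SLC29A1 (0.81) the highest.

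Genes near the 8 on the chromosome were examined in the same way. Within 250 kb of the 8 genes the table held 150 genes, of which 93 were tested, and FIBIN had no neighbour among them. Past an adjusted p of 0.05 by edgeR, 5 were higher and 2 lower at 12 h (7.53%), 9 higher and 6 lower at 24 h against 0 h (16.1%), and 3 lower from 12 h to 24 h (3.23%), against 11.6%, 16.3% and 2.72% over all genes. By edgeR and by DESeq2, 0 of the 93 were called lower in the 3 comparisons, and 0, 3 and 2 were lower by at least 1.5-fold at an unadjusted p under 0.05. By edgeR 1 of the 93 was called higher, TMEM121B, 57423 bases from ADA2 and named after its values were seen. It had 15 to 75 counts in a library and a log2 change of 1.16 at 24 h against 0 h (edgeR adjusted p 0.0457), a call that ended in 5 of 12 alternatives, among them leaving out 0 h replicate 1.

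The nearest coding genes of KLHDC7B, PGC, VPREB3, PHGR1 and ADA2 were well counted. SYCE3 lies 89 bases from KLHDC7B and had log2 changes of -0.06, -0.09 and -0.02 (lowest edgeR adjusted p 0.693). TFEB lies 452 bases from PGC and had 0.09, 0.16 and 0.07 (lowest edgeR adjusted p 0.547). ZNF70, 1631 bases from VPREB3, had 0.08, -0.00 and -0.08 (lowest edgeR adjusted p 0.604). DISP2, 1785 bases from PHGR1, had -0.35, -0.21 and 0.14 (lowest edgeR adjusted p 0.250), and HDHD5, 13503 bases from ADA2, rose by 0.21 at 12 h (adjusted p 0.00285), which was lost without 0 h replicate 1. The neighbours with the smallest p at 24 h against 0 h were ADM2 near KLHDC7B (log2 change -0.48, edgeR adjusted p 8.01e-08), SHANK3 near KLHDC7B (0.54, adjusted p 1.46e-06), FOXP4 near PGC (0.27, adjusted p 0.000490) and BMF near PHGR1 (0.33, adjusted p 0.00137).

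**Figure D4:**
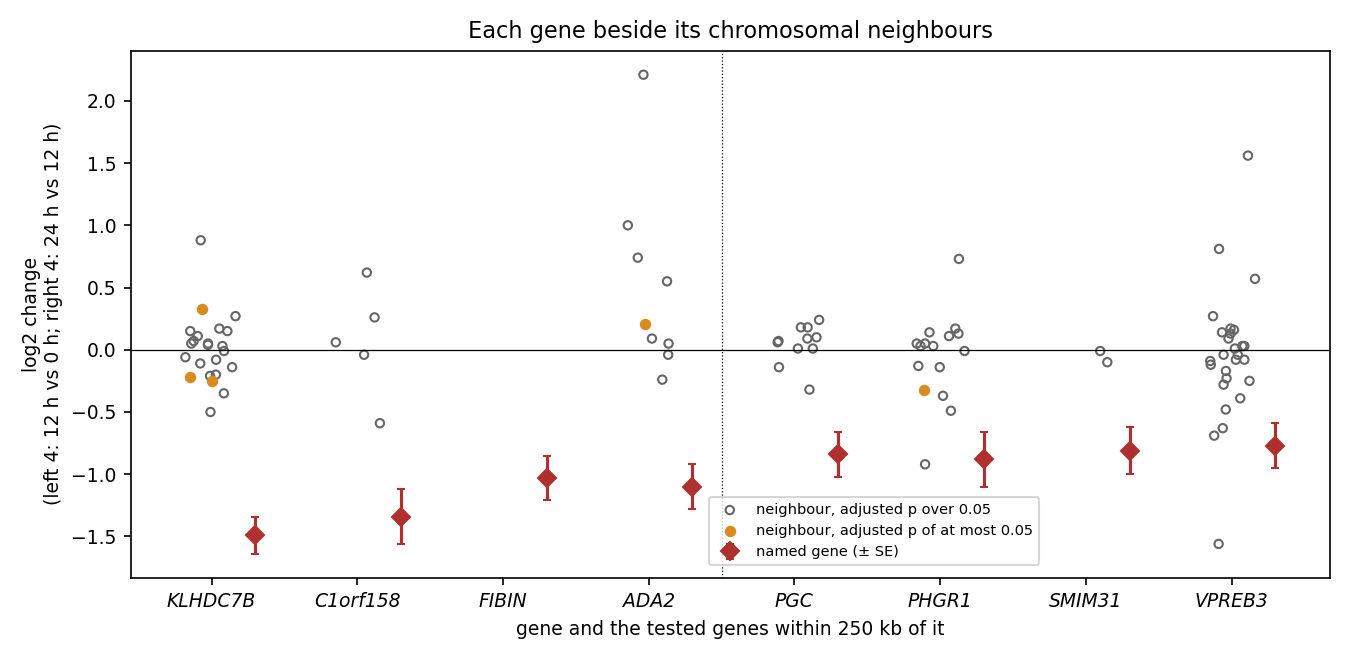
Log2 change (y axis) of each of the 8 genes (diamonds, ± SE) beside the tested genes within 250 kb of it (circles, filled for an adjusted p of at most 0.05), between 12 h and 0 h for the left 4 and between 24 h and 12 h for the right 4. FIBIN has no tested neighbour, and the neighbours that lie as low as a named gene are open circles.

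The genes whose log2 CPM most resembled each of the 8 over the 8 libraries were sought among 12810 named genes with a mean of at least 100 counts. KLHDC7B was closest to FERMT2 (r 0.997), TRIM39 (0.993) and ERVE-1 (0.987), and FERMT2, an integrin-binding adhesion protein, went from 23.6 CPM at 0 h to 16.8 and 17.2 CPM. C1orf158 was closest to EIF1AY (0.987), MAPRE3 (0.986) and AP3S1 (0.986). FIBIN was closest to RNF19B (0.994), NEURL1B (0.988) and ARHGEF2 (0.986), and ADA2 to AASS (0.994), GOT1 (0.993) and NIBAN1 (0.992). AASS and GOT1 are enzymes of amino acid metabolism, and NIBAN1, a stress-induced protein, went from 96.4 to 57.2 and 48.7 CPM.

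Among the late genes, PHGR1 was closest to TRPM8 (r 0.988), AURKA (0.983) and KIF14 (0.980), that is a cold-sensing channel known from the prostate, a mitotic kinase and a mitotic kinesin. TRPM8 had 12.0, 11.3 and 8.58 CPM at 0, 12 and 24 h. PGC was closest to IL17RC (0.979), GTSE1 (0.961) and GNMT (0.961), SMIM31 to OXSM (0.970), AJUBA (0.965) and SDF2L1 (0.960), and VPREB3 to FAM229A (0.936), FOXJ2 (0.930) and BMS1 (0.928). The number of genes with r of at least 0.95 was 202 for ADA2, 82 for FIBIN, 36 for KLHDC7B, 17 each for C1orf158 and PHGR1, 10 for SMIM31, 4 for PGC and 0 for VPREB3. The 8 libraries share the time course and their depth, so a high r over them describes a shared course only. The names are the highest of 12810 values over 8 libraries, and r does not measure the size of a change. Some of these genes changed little. BMS1 had 102, 104 and 100 CPM at 0, 12 and 24 h. MAPRE3 changed by -0.14 on the log2 scale at 12 h against 0 h, where C1orf158 changed by -1.34.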

How the data were processed

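The authors deposited unnormalized read counts for each gene, made from paired-end mRNA reads by trimming with Cutadapt, aligning to GRCh38.p13 with STAR and counting over GENCODE 38 with featureCounts. The strand and multi-mapping options of the counting are not given in the sources used here. Coordinates equalled those of GENCODE 44 for 30996 of 30996 genes with the same versioned identifier. ADA2 is not among these, since its identifier version differs. Exon blocks and exon lengths were those of GENCODE 44. Groups came from the column names, and no per-sample column was left unused.

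The 8 genes, the gene lists around them and the alternatives were chosen with earlier results of these data known. Genes were tested with edgeR 4.0.16 in R 4.3.3 (quasi-likelihood, robust, TMM, filterByExpr, 1 coefficient per time, all 8 libraries). The SE came from the F statistic, and log2 CPM for correlations used a prior count of 2. The biological coefficient of variation was 5.59%. Replicate libraries differed by more than sampling noise (chi-square per degree of freedom of 5.10 to 13.8 within groups), so each was counted once. The procedure was tested on simulated counts. Limits from a count of 0 (3 counts) cover counting error only.

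Named genes were the 8, up to 4 genes per list by smallest adjusted p, their closest relatives, the 3 most similar genes and the next in rank. Alternatives were RLE normalization, no low-count filter, DESeq2 1.42.0, fits to 2 time points, the replicate number as a block, each library left out, and Spearman correlation. Similar transcripts were found by BLAST. Features of the proteins were not analysed here, and not every gene that these rules name is reported here.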

Additional observations from a re-analysis of the deposited data

How the results depend on the processing

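The 119, 284 and 22 genes called lower (12 h against 0 h, 24 h against 0 h, 24 h against 12 h) were 114, 284 and 24 with RLE normalization and 110, 281 and 30 with no low-count filter. DESeq2 called 79, 200 and 17, and fits to the compared time points alone called 112, 292 and 22. Leaving out each library in turn gave 37 to 145, 145 to 309 and 9 to 27 genes. The lowest counts against 0 h came without 0 h replicate 1, and those between 24 h and 12 h without 12 h replicate 3 or 24 h replicate 1 (9 each) and without 24 h replicate 2 (10). The cause was not tested.

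With the replicate number as a block, 25 genes were called lower between 24 h and 12 h, and none of the 4 late genes lost its call. The numbers share little beyond a number, since libraries with the same number at 12 h and 24 h correlated in their deviations at 0.10, 0.03 and 0.03. For comparisons with 0 h, no paired analysis was possible because the second 0 h library carries a column number that no 0 h label has, and it was used without a number.

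Of 296 values of the log2 changes of the 8 genes under these alternatives, 296 lay within 1 SD of the libraries within groups. Leaving out 1 library of a group of 2 or 3 moves its mean by only part of such an SD, so this count was largely fixed in advance. It does not measure stability, and calls of FIBIN and of the late genes were lost as given above. The changes that were not called could change sign, as for PGC at 12 h (-0.24 to 0.17), PHGR1 at 12 h (-0.19 to 0.10), KLHDC7B (-0.07 to 0.19) and C1orf158 (-0.03 to 0.33) after 12 h. The share of the 24 h change present at 12 h moved for PGC to -24.6% without the second 0 h library, and for VPREB3, whose 24 h change was not called, from -168% to -365% without 24 h replicate 1. By Spearman correlation, 7 of the 8 genes shared fewer than 2 of their 3 most similar genes with those by Pearson. Depth gave the 8 genes 66 to 584 counts per library, and the SE of their log2 changes was 0.15 to 0.24.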
